A study of Mus musculus with 22 samples.

Results

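The small (40S) subunit of the cytosolic ribosome carries the mRNA and, together with initiation factors, finds the start codon. Its protein genes were taken as every gene of the deposited count table with a symbol made of Rps and a number (with an optional a, x or l), plus Rpsa and Fau, which left out the Rps6k kinases and the mitochondrial Mrps genes. The rule found 32 of the 6054 genes in the table. Rps27 was not among them and was not analysed here. The tissue was quadriceps muscle of C57Bl/6 mice, an inbred strain with no transgene named in the labels, and every mouse was fasted overnight and gavaged 30 minutes before the muscle was taken. The leucine mice received leucine in that gavage and the vehicle mice received the carrier, so both groups share the fast, the gavage and the strain. The labels used here give neither a dose nor an age. There were 6 leucine and 5 vehicle libraries of footprints, which are the stretches of mRNA left intact under a ribosome after nuclease digestion, and 6 leucine and 5 vehicle libraries of total RNA depleted of ribosomal RNA.

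Ribosomal proteins of both subunits are made in nearly equal numbers, because each ribosome holds a single copy of most of them. Their mRNAs are abundant and typically begin with a C followed by a run of pyrimidines, the 5′ terminal oligopyrimidine (TOP) element. Translation of TOP mRNAs is known to be held back when the kinase complex mTORC1 is inactive, as in fasting, and to resume when amino acids such as leucine activate it. In skeletal muscle this pathway is known for its part in the rise of protein synthesis after a meal.

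Total counts ran from 21697096 to 48996109 in footprint libraries and from 15016267 to 30944085 in RNA libraries, and the lowest count of any 40S gene in any library was 160. The sample columns carry 2 unexplained prefixes, called sets A and B below, each holding leucine and vehicle libraries of both assays. Libraries are named by set and column order (A1, B3), and a shared number does not link a footprint library to an RNA library. Whether the libraries of a group came from separate mice is not stated in the labels, so p-values cover the spread among these libraries, which may be technical. All 10 listed muscle fibre markers were measured, and their summed level was 252100 to 356400 CPM (reads scaled to a common library size) in leucine footprints and 224900 to 280100 in vehicle footprints. Among RNA libraries, leucine A3 had the lowest leucine value in 20 of the 32 genes.

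The start of the mRNA is shown for 8 genes on which the results below turn, since the TOP element is defined there. Each line holds 10 bases before the RefSeq start and 20 from it on, in the direction of the gene, on build GRCm38.p6. Capitals mark every run made of a C and at least 4 pyrimidines after it, where the C lies within 10 bases of the start.
Rps2: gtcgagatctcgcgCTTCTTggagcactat
Rps12: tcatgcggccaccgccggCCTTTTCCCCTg
Rps18: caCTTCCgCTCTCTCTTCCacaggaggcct
Rps15a: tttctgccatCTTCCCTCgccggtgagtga
Rps6: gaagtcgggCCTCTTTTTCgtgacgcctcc
Fau: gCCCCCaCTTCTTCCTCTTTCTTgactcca
Rps27l: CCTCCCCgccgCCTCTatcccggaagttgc
Rpsa: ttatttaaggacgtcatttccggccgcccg
These lie at chr17:24720053-24720082 on the plus strand (Rps2), chr10:23787190-23787219 on the minus strand (Rps12), chr17:33955646-33955675 on the minus strand (Rps18) and chr7:118116128-118116157 on the minus strand (Rps15a). The others lie at chr4:86857348-86857377 on the minus strand (Rps6), chr19:6057937-6057966 on the plus strand (Fau), chr9:66946076-66946105 on the plus strand (Rps27l) and chr9:120127756-120127785 on the plus strand (Rpsa). In Rps15a the run begins at the annotated first base, in Rps2 at the 5th and in Rps12 at the 9th. In Rps6, Rps18 and Fau a run begins 1, 2 and 3 bases before the annotated first base and continues past it, and Rps18 and Fau have a further run before that. Rps27l has a run that begins 10 bases before the annotated first base and another that begins at the 2nd base, while Rpsa has none in the window. Rps27l has another RefSeq start, where no such run lies within 10 bases.

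RefSeq starts were at hand for 24 of the 32 genes, and those of the other 8 were not used here. Searching only the strand of the gene, 15 of the 24 (62.5%) had a C followed by at least 4 of C or T beginning within 10 bases of a start, against 36.1% of 4833 genes of the table with a start. For the large-subunit (60S) proteins it was 20 of 34 (58.8%). With at least 6 pyrimidines after the C the shares were 50% of the 40S genes and 14.8% of all genes. The shares depended on the search. With at least 4 pyrimidines they were 87.5% and 59.5% within 25 bases, and 58.3% and 31.4% within 10 bases of the first listed start only. The 15 genes with a run had a median footprint change of 0.73 on the log2 scale (0.01 to 1.23) and the 9 without one had a median of 0.62 (0.33 to 0.97), so the ranges lay largely over each other. A match describes these letters only, and annotated starts can miss the start used in muscle.

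Footprints on 40S protein mRNAs were higher in leucine muscle nearly across the whole set, while no change was called in their RNA. Levels are given in CPM scaled with edgeR's TMM factors, and changes are log2 differences, leucine minus vehicle, with standard errors (SE). In edgeR's quasi-likelihood test, with p-values adjusted over all 6054 genes, 13 of the 32 genes passed 0.05 as higher and 0 as lower, where 0.694% of all genes were higher and 0.0661% lower. All 32 estimates were positive, with a median of 0.65 (1.57-fold), against −0.01 for all genes. For 31 of the 32, all but Rps27l, the 95% interval of the change lay above 0 (at an unadjusted p under 0.05, 6.52% of all genes were higher and 5.55% lower). DESeq2 called 30 higher and 0 lower (3.11% and 1.07% of its genes). In 23 of the 32 every leucine library lay above every vehicle library, which held for 1.75% of all genes, and in 0 of the 32 did every leucine library lie below, which held for 0.743%. These are bulk samples, so fewer cells of a type and less RNA per cell cannot be told apart.

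**Figure D1:**
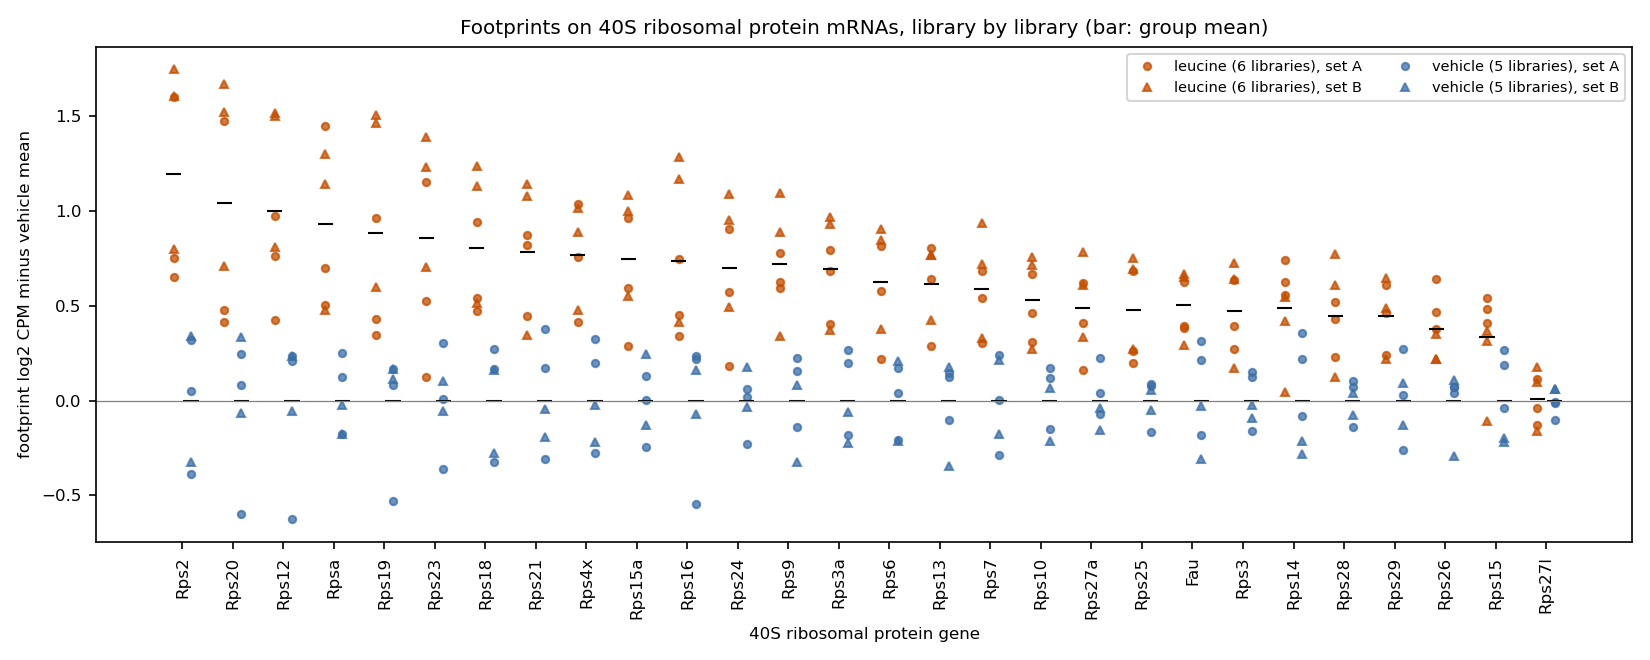
Footprint level of 28 of the 32 genes in each library, as log2 CPM minus the vehicle mean of that gene, with leucine (6 libraries, orange) left of vehicle (5 libraries, blue), circles for set A and triangles for set B, and a bar at each group mean. Leucine libraries lie above 0 for most genes, from Rps2 at the left, with a change of 1.23, to Rps27l at the right, where the groups lie over each other.

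The 11 genes of the subunit's body, the large lower part, had a median change of 0.73, and 7 of them rose. Rps2 forms part of the channel by which mRNA enters, and its leucine footprints were 36.7 CPM at the lowest, 55.7 at the median and 78.3 at the highest. Its 5 vehicle libraries had 17.8, 29.1, 24.1, 18.6 and 29.5 CPM. The groups did not overlap, and leucine A1, B1 and B2 lay well above leucine A2, A3 and B3. The change of Rps2 was 1.23 ± 0.24 (SE; 2.35-fold; edgeR adjusted p = 0.0479), the largest of the 32. Rpsa, which lies near the mRNA exit and is also known as a laminin receptor, had 43.6 CPM at the lowest, 60.01 at the median and 85.6 at the highest in leucine footprints. In vehicle footprints Rpsa had 27.7, 37.2, 34.2, 27.7 and 30.8 CPM. The Rpsa groups did not overlap either, and its change was 0.97 ± 0.18 (edgeR adjusted p = 0.0479).

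Other body genes that rose were close together. Rps21 changed by 0.79 ± 0.16, Rps4x by 0.77 ± 0.14, Rps24 by 0.73 ± 0.15 and Rps9 by 0.73 ± 0.13, all at an edgeR adjusted p of 0.0479. Rps4x is the X-linked form of S4, and Rps9 is an early binder of the subunit's RNA. Of these, Rps21 had 1 leucine library, B3 (38.1 CPM), below the highest vehicle library, A3 (38.8 CPM).

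Further body genes missed the threshold. Rps6, the substrate of the S6 kinases that act below mTORC1, had leucine footprints of 134.8 CPM at the lowest, 188 at the median and 216.8 at the highest. Its vehicle footprints were 100.1, 118.8, 130.2, 99.7 and 133.6 CPM. All leucine values thus lay above all vehicle values, by a margin of little more than 1 CPM for leucine A3, and the change was 0.64 ± 0.13 (edgeR adjusted p = 0.0501). Rps23, which reaches into the decoding centre, had 0.90 ± 0.21 (edgeR adjusted p = 0.0781). Fau encodes S30 fused to a ubiquitin-like protein that is cut off. It had 25.4 to 32.9 CPM in leucine and 16.7 to 25.7 CPM in vehicle, with only leucine B3 below the highest vehicle library, and a change of 0.49 ± 0.12 (edgeR adjusted p = 0.0816).

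Among the 7 measured genes of the platform, the side lobe near the mRNA exit, the median change was 0.59 and 3 rose. Rps15a had 19.4 CPM at the lowest, 27.6 at the median and 33.8 at the highest in leucine footprints, against 13.4, 17.4, 15.9, 14.6 and 18.8 CPM in vehicle. The groups were separate, with leucine A3 closest to vehicle, and the change was 0.76 ± 0.14 (edgeR adjusted p = 0.0479). Rps3a (0.70 ± 0.13) and Rps13 (0.62 ± 0.12), which lies at the face towards the large subunit, rose at the same adjusted p. Rps7 had 0.59 ± 0.13 and Rps14 0.48 ± 0.14, and neither passed. Rps26 contacts the mRNA upstream of the start codon. It had 10.7 to 14.4 CPM in leucine and 7.52 to 9.96 CPM in vehicle, with no overlap, and a change of 0.38 ± 0.10 (edgeR adjusted p = 0.107).

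The exception was the platform gene Rps27l, a paralog of Rps27 that is known in human cells as a p53 target. Its leucine footprints were 62.8 CPM at the lowest, 71.8 at the median and 79.4 at the highest. Its vehicle footprints were 65.4, 69.5, 69.8, 73.4 and 73.4 CPM. The groups lay over each other, with leucine B3 the lowest of all 11 libraries and leucine B1 the highest. The change was 0.01 ± 0.07, with a 95% interval of −0.15 to 0.18, which leaves out the median change of the set (edgeR adjusted p = 0.968). The paralog could not be set beside Rps27, and reads shared between near-identical genes may be counted for either.

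The 14 genes of the head, the lobe that swivels during translocation, had a median change of 0.52, and 3 rose. Rps18, at the top of the head, changed by 0.82 ± 0.17 and Rps10, a target of the ubiquitin ligase ZNF598 on collided ribosomes in human cells, by 0.54 ± 0.11 (edgeR adjusted p = 0.0479 each).

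Several head genes had large estimates that did not pass. Rps20, a further target of ZNF598 in human cells, had 24.9 CPM at the lowest, 41.3 at the median and 59.6 at the highest in leucine footprints, and 12.3, 22.2, 19.8, 17.9 and 23.6 CPM in vehicle. Leucine A2 and A3 lay just above the highest vehicle library and leucine A1, B1 and B2 far above it, and the change was 1.10 ± 0.27 (2.15-fold; edgeR adjusted p = 0.0884). Rps12, at the tip of the head called the beak, had 15.1, 20.9 and 32.3 CPM at the lowest, median and highest in leucine, and 7.29, 13.0, 13.3, 10.9 and 13.3 CPM in vehicle. Its groups did not overlap, and its change was 1.02 ± 0.22 (edgeR adjusted p = 0.0542). Rps19, the gene most often mutated in human Diamond-Blackfan anaemia, had 0.94 ± 0.23 and Rps16 had 0.75 ± 0.20 (edgeR adjusted p = 0.0952 and 0.123).

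The smaller estimates in the head ran from 0.50 down to 0.33. Rps27a, S31 fused to ubiquitin, had 79.6 to 122.8 CPM in leucine and 63.9 to 83.1 CPM in vehicle, a change of 0.50 ± 0.11 (edgeR adjusted p = 0.0557), with leucine A3 alone below the highest vehicle library. Rps25, Rps3 (which lines the mRNA entry with Rps2), Rps28 and Rps29 had 0.49, 0.48, 0.46 and 0.44. Rps15 had the lowest estimate of the head, 0.33 ± 0.12 (edgeR adjusted p = 0.275), and its leucine B3 library (27.2 CPM) lay among the vehicle libraries (25.2 to 35.3 CPM). The 3 position groups overlapped widely in their changes, 0.49 to 1.23 in the body, 0.01 to 0.76 in the platform and 0.33 to 1.10 in the head, and no test of a difference between them was made.

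**Figure D2:**
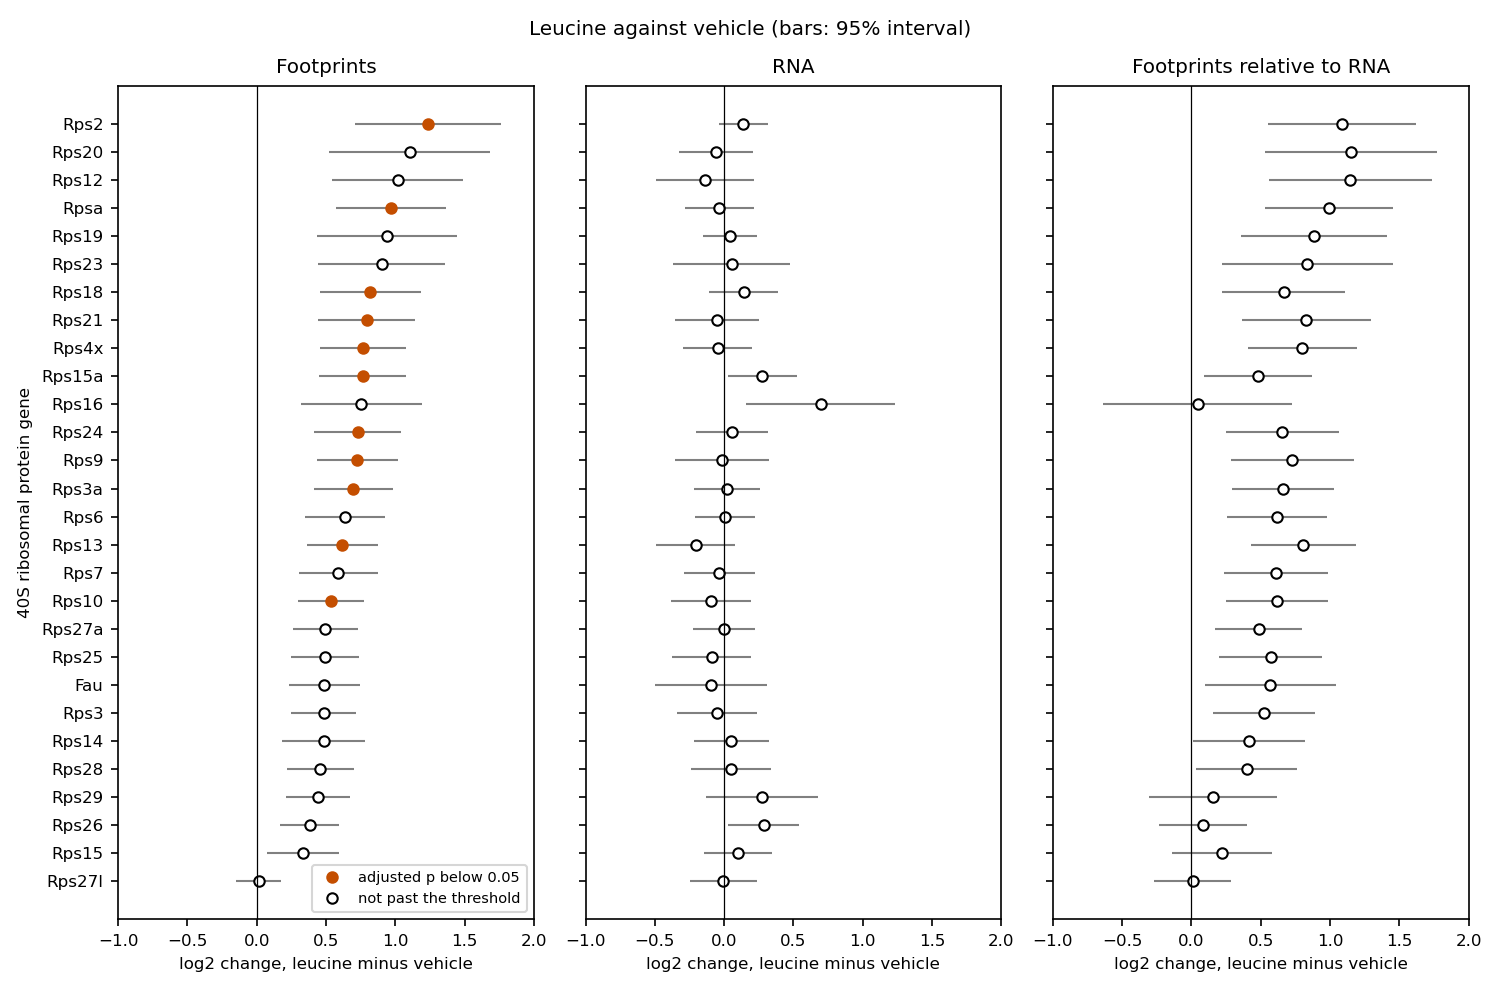
Change of 28 of the 32 genes in footprints, in RNA and in footprints relative to RNA, as log2 leucine minus vehicle with 95% intervals, ordered by the footprint change. Filled orange points passed an adjusted p of 0.05 in edgeR. They occur only in the footprint panel (11 of the 13 called), the RNA estimates lie around 0 apart from Rps16 (0.70), and the right panel resembles the footprints, with estimates nearer 0 for Rps16 (0.04), Rps26 (0.08) and Rps29 (0.16).

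No 40S gene passed the test in RNA. In edgeR 0 of the 32 passed in either direction (0% of all genes higher and 0% lower), DESeq2 and limma-voom also called 0, and 3 were higher at an unadjusted p under 0.05 and 0 lower (1.42% and 1.27% of all genes). The median change was 0.00, as for all genes, and 16 of 32 estimates were positive. In none of the 32 did the groups separate (0.132% of all genes had every leucine library above every vehicle library). Without leucine RNA A3, the library that stood apart, the median was 0.05 and edgeR again called 0. The 3 smallest p-values belonged to Rps16, Rps26 and Rps15a. Rps16 RNA was 29.0 CPM at the lowest, 41.3 at the median and 50.9 at the highest in leucine, and 38.1, 23.2, 13.6, 19.4 and 32.5 CPM in vehicle. The groups overlapped, with vehicle A1 above leucine A3 and B1, and the change was 0.70 ± 0.25 (edgeR unadjusted p = 0.0152, adjusted p = 0.999). Rps26 had 0.28 ± 0.12 and Rps15a 0.27 ± 0.11 (edgeR adjusted p = 0.999 each).

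Footprints relative to RNA, often called translational efficiency, were tested as the interaction of treatment and assay over all 22 libraries. All 32 estimates were positive, with a median of 0.62 (1.53-fold), against −0.02 for all genes. In edgeR 0 genes passed the adjusted threshold (0% of all genes), 27 of the 32 were higher at an unadjusted p under 0.05 and 0 lower (3.65% and 3.44% of all genes), while DESeq2 gave 25 of the 32 an adjusted p and called 14 of these higher and 0 lower (1.83% and 0.437% of the 2519 genes with one). Without leucine RNA A3 the median was 0.56, edgeR again called 0, and 25 of the 32 had an unadjusted p under 0.05 (4.97% of all genes higher and 3.93% lower). The 2 largest estimates were those of Rps20 (1.15 ± 0.30) and Rps12 (1.15 ± 0.28), at edgeR adjusted p-values of 0.204 and 0.177. The 3 smallest were those of Rps26 (0.08 ± 0.15), Rps16 (0.04 ± 0.33) and Rps27l (0.01 ± 0.13). Rps27l was near 0 in all 3 measures, whereas Rps16 and Rps26 had positive estimates in footprints and in RNA alike.

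Whether the genes moved by unequal amounts was tested by scaling each library to the geometric mean of the 40S counts, so that a change is relative to the set's own average. On that scale Rps2 (0.55 ± 0.18, edgeR adjusted p = 0.00306) and Rps20 (0.41 ± 0.18, edgeR adjusted p = 0.024) passed as above the average in footprints. Rps27l lay below it, by −0.64 ± 0.19 (edgeR adjusted p = 0.00113). These 2 genes above and 1 below stand beside 0.0496% of all genes higher and 94.8% lower, since nearly all genes fall against this scale, and the adjustment therefore hardly alters the p-values. Rps2 and Rps27l passed in all 13 alternatives run for this scale. Rps20 missed the threshold without vehicle A1 or A3 or without leucine A1 or B2. For the other 29 genes this fit detected no difference from the average, and each 95% interval took in 0. The SEs on this scale were much alike, with 0.1765 for Rps15 and 0.1883 for Rps10, beside a median of 0.1831 over all genes. They therefore say little about the spread of a single gene around the set, and a miss here does not show that a gene moved with the average. Rps12 (0.35 ± 0.18) and Rps15 (−0.31 ± 0.18) came nearest, at edgeR adjusted p-values of 0.0587 and 0.0873.

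In footprints relative to RNA on the same scale, Rps12 (0.53 ± 0.19) and Rps20 (0.51 ± 0.21) lay above the average and Rps26 (−0.49 ± 0.21), Rps16 (−0.58 ± 0.25) and Rps27l (−0.60 ± 0.19) below it. Their edgeR adjusted p-values lay between 0.018 and 0.0453, and 0.0496% of all genes were higher and 65% lower. Since most genes fall against this scale, the adjustment is mild here too. The edgeR unadjusted p-values ran from 0.00321 (Rps27l) to 0.0282 (Rps16), and they were not adjusted over the 32 genes alone. Rps27l passed in all 24 alternatives, while Rps12 missed the threshold in 2, Rps20 in 12, Rps26 in 13 and Rps16 in 18. In RNA on this scale 0 of the 32 passed in edgeR (0% of all genes higher and 0% lower), with Rps16 higher and Rps13 lower at an unadjusted p under 0.05 (0.248% and 0.76% of all genes).

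The libraries differed in how far the set moved. The median over the 32 genes, as log2 CPM minus the vehicle mean, was 0.80, 0.50 and 0.34 in leucine footprints A1, A2 and A3 and 0.89, 0.88 and 0.35 in B1, B2 and B3. In vehicle footprints it was −0.22, 0.18 and 0.15 in A1, A2 and A3 and −0.19 and 0.10 in B1 and B2. Every leucine median thus lay above every vehicle median, with leucine A3 and B3 the nearest. The lowest leucine library of a gene was A3 in 14 genes, B3 in 15 and A2 in 3, and the highest was B1 in 14, B2 in 12, A1 in 5 and A2 in 1. Without leucine A3, edgeR called 25 of the 32 higher (1.39% of all genes higher and 0.231% lower), without leucine B3 it called 18 (1.07% and 0.033%), and without any other single library it called 0, with 31 of the 32 at an unadjusted p under 0.05 in each case. The median change stayed between 0.59 and 0.72 with any 1 footprint library left out.

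**Figure D3:**
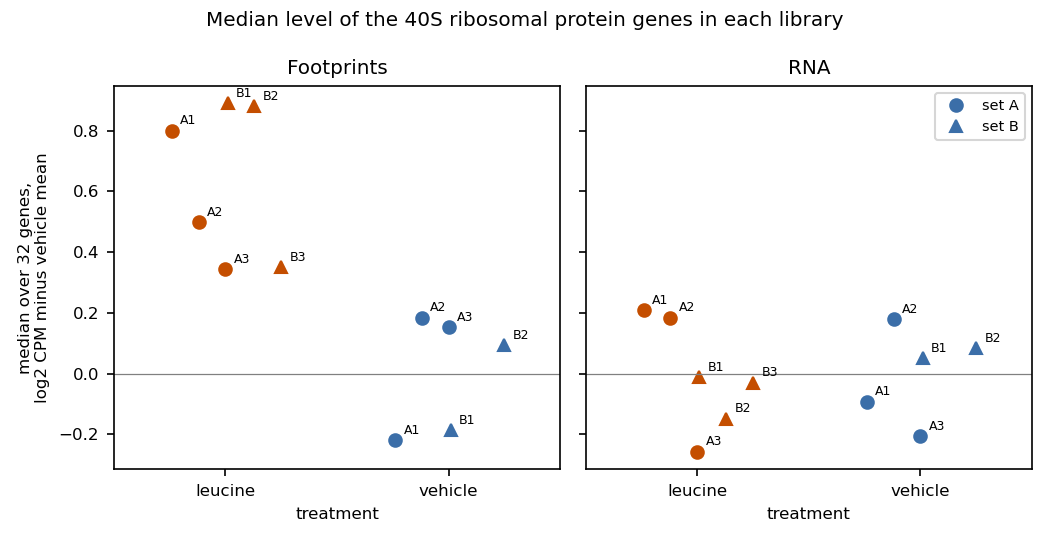
Median over the 32 genes of the level in each library, as log2 CPM minus the vehicle mean, with leucine left of vehicle in each panel, circles for set A and triangles for set B. In footprints the 6 leucine libraries lie between 0.34 and 0.89, above all 5 vehicle libraries, and in RNA leucine and vehicle libraries overlap.

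Within sets, the footprint change had a median of 0.53 in set A (32 of 32 positive) and 0.77 in set B (31 of 32 positive). In edgeR 0 genes of the 32 passed in either set, where 3 leucine libraries met 3 or 2 vehicle libraries, and 31 were higher at an unadjusted p under 0.05 in each. At that p, 5.04% of all genes were higher and 3.87% lower in set A, and 5.9% and 4.71% in set B. The median RNA change was 0.11 in set A, with 31 of 32 positive, and −0.14 in set B, with 4 of 32 positive. At an unadjusted p under 0.05, 1 was higher and 0 lower in RNA of set A (1.14% and 0.958% of all genes), and 3 were higher and 9 lower in RNA of set B (2.69% and 3.12% of all genes). The median of footprints relative to RNA was 0.38 in set A, with 29 of 32 positive, and 0.93 in set B, with 31 of 32 positive. There 5 of the 32 were higher at an unadjusted p under 0.05 in set A (1.59% of all genes higher and 1.45% lower) and 29 in set B (5.37% and 4.77%), and 0 were lower in either. An edgeR test of a difference in the leucine effect between the sets called 0 of the 32 in either assay. At an unadjusted p under 0.05 it had 1 of them in RNA (1.82% of all genes) and 0 in footprints (2.91% of all genes). The 32 genes together took 0.218% ± 0.0454 of footprint counts in leucine (SD, n = 6) and 0.155% ± 0.0185 in vehicle (SD, n = 5). In RNA they took 0.439% ± 0.0503 in leucine (SD, n = 6) and 0.430% ± 0.0613 in vehicle (SD, n = 5).

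Although ribosomes hold the proteins in nearly equal numbers, the counts per length did not match between genes. In CPM per kilobase of coding sequence, footprints were highest on Rps29, with 675.2 ± 82.4 in leucine (SD, n = 6) and 497 ± 70.8 in vehicle (SD, n = 5). They were lowest on Rps23, with 27.2 ± 8.57 in leucine and 14.5 ± 2.39 in vehicle, so the highest was 24.8 times the lowest in leucine and 34.2 times in vehicle. Rps29 is the smallest of the proteins, with 56 codons. In vehicle footprints Rps27l (278.8 ± 13.2) and Rps25 (208.3 ± 15.3) followed Rps29, and Rps19 (22.2 ± 4.0) and Rps26 (26.9 ± 2.88) came before Rps23. Rps27l was the 4th highest in leucine and the 2nd highest in vehicle. Its mean of 281.6 ± 27.1 in leucine lay within its spread of the Rps25 mean, 293.1 ± 51.9.

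RNA per kilobase had much the same ends. Rps29 was highest, with 1750.0 ± 484 in leucine and 1451 ± 220.0 in vehicle, followed by Rps24 with 589.1 ± 81.2 in leucine and 565.7 ± 76.7 in vehicle. Rps21, the third in vehicle, had 493.3 ± 95.3 in leucine and 510.7 ± 75.8 in vehicle. Rps23 was lowest with 34.1 ± 9.14 in leucine and 32.8 ± 7.22 in vehicle, and the next lowest in both groups were Rps16 (93.8 ± 19.5 in leucine and 57.8 ± 22.6 in vehicle) and Rps26 (90.7 ± 12.6 in leucine and 74.5 ± 10.5 in vehicle). Ribosomal protein genes have many processed pseudogenes, and the counting of reads with several matches is not described in the labels, so levels of single genes are uncertain. The SD of log2 footprints per kilobase over the 32 genes was 1.002 to 1.14 in leucine libraries (median 1.04) and 1.11 to 1.22 in vehicle libraries (median 1.14). The genes thus lay slightly closer to each other in leucine, with an overlap of the ranges. RNA had the same direction, with 0.967 to 1.11 in leucine libraries (median 1.002) and 1.03 to 1.09 in vehicle libraries (median 1.06), so this was not particular to footprints.

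**Figure D4:**
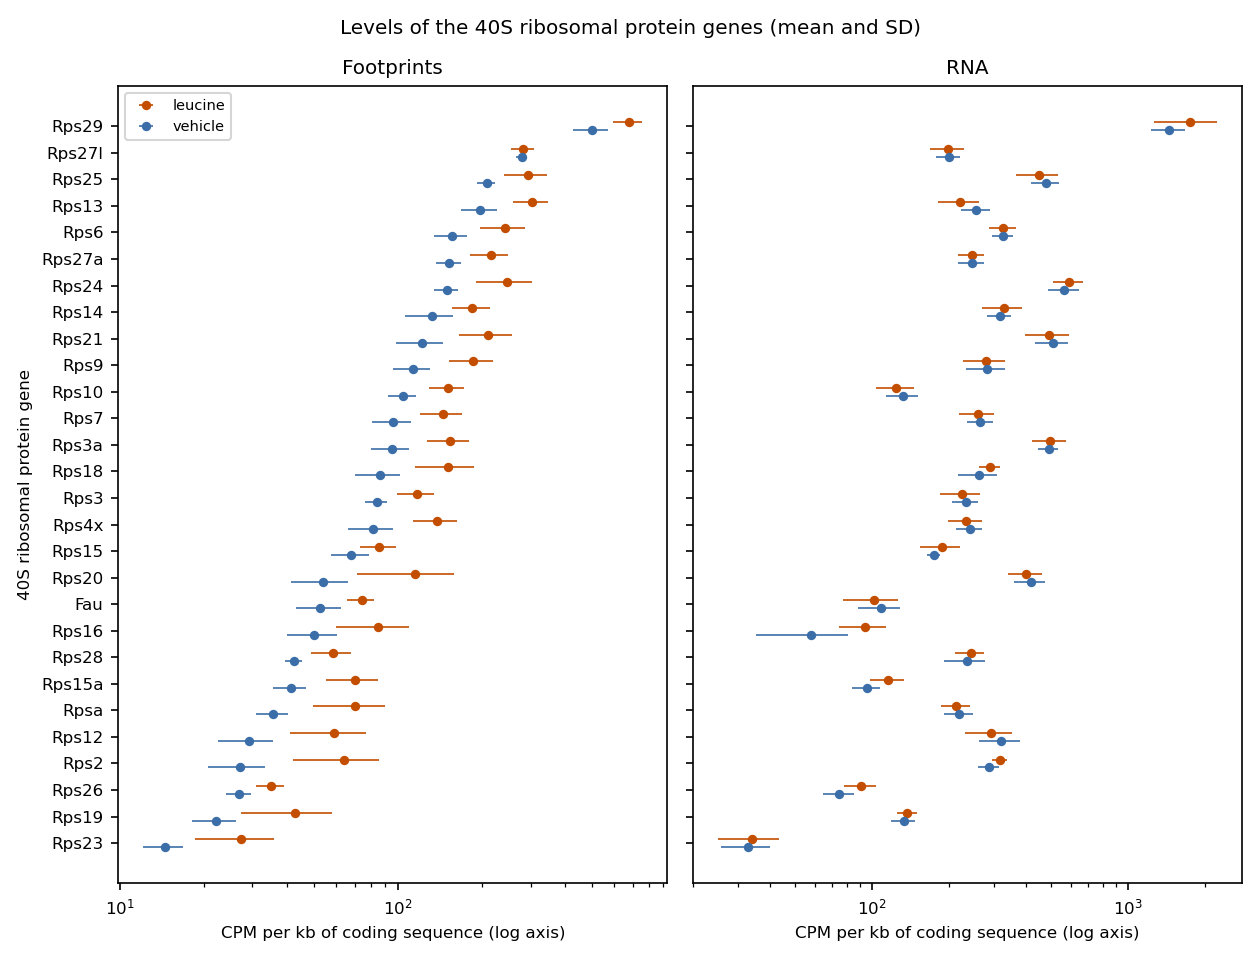
Mean level of 28 of the 32 genes in CPM per kilobase of coding sequence (log axis) with SD bars, footprints at the left and RNA at the right, leucine in orange above vehicle in blue, ordered by vehicle footprints. Leucine footprints lie right of vehicle footprints for nearly all genes except Rps27l (281.6 in leucine and 278.8 in vehicle), and RNA levels of both groups lie close together.

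The 40S mRNAs carried few footprints for their RNA. The ratio of mean footprint CPM to mean RNA CPM had a median of 0.522 in leucine and 0.362 in vehicle over the 32 genes, against 0.889 in leucine and 0.880 in vehicle over all genes. In leucine 27 of the 32 lay below the median of all genes, and in vehicle 31 did. Each library is scaled to its own assay, so the ratio ranks genes and does not count ribosomes per mRNA. The lowest ratios were those of Rps2 (0.202 in leucine and 0.0944 in vehicle) and Rps12 (0.203 in leucine and 0.0909 in vehicle), and the highest was that of Rps27l (1.42 in leucine and 1.40 in vehicle). Rps27l was the only gene of the 32 above the median of all genes in vehicle.

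Genes with a low ratio in vehicle had larger footprint changes. The 8 with the lowest ratios, which include Rps12, Rps2, Rps20, Rpsa, Rps19, Rps28 and Rps3a, had a median change of 0.99 (0.46 to 1.23), and the 8 with the highest, which include Rps27l, Rps16, Rps10 and Rps13, had a median of 0.58 (0.01 to 0.75). Across the 32 genes the Pearson correlation of the log2 ratio with the footprint change was −0.70 and Spearman's was −0.52. Genes share libraries and are not independent replicates, and both measures contain the vehicle footprints. Taking the ratio from one set and the change from the other, the Pearson correlation was −0.65 with the ratio from set A and −0.69 with the ratio from set B, and −0.56 and −0.61 without Rps27l. Spearman's was weaker in the same order, at −0.49 and −0.50, and −0.44 and −0.45 without Rps27l. Coding length and vehicle RNA per kilobase went less closely with the change (Pearson 0.41 and 0.04).

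**Figure D5:**
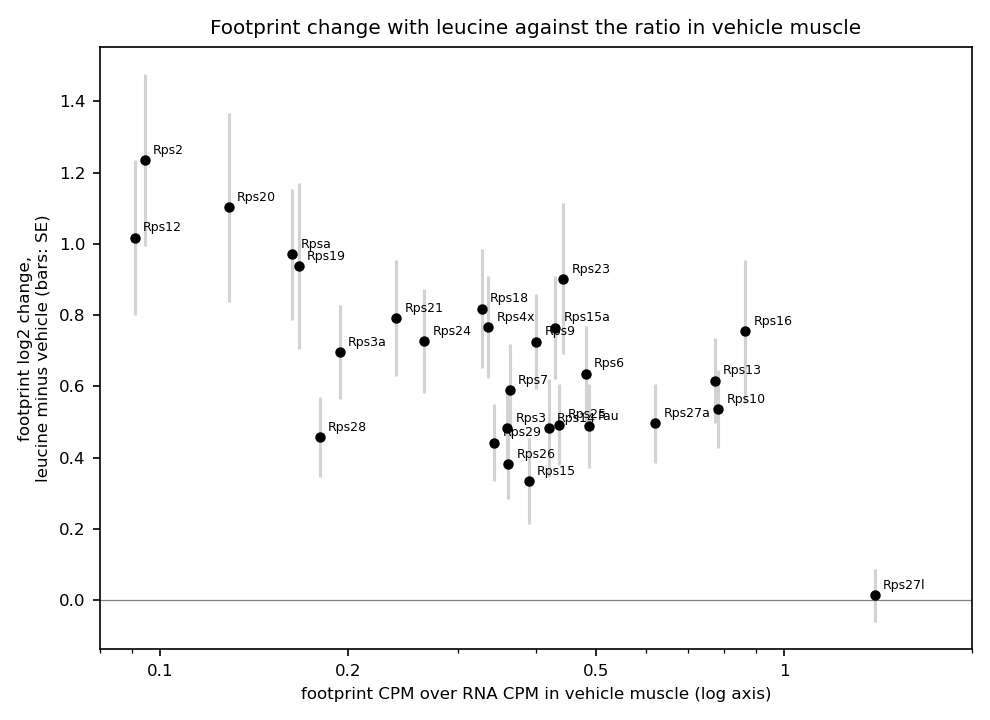
Footprint change of 28 of the 32 genes (log2 leucine minus vehicle, with SE) against the ratio of footprint CPM to RNA CPM in vehicle muscle (log axis). Rps12, Rps2 and Rps20 lie at the upper left, with ratios of 0.0909, 0.0944 and 0.129 and changes above 1, and Rps27l lies alone at the lower right with a ratio of 1.40 and a change of 0.01.

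Other genes of the ribosome and its partners were set beside the 40S proteins by list. All 45 measured 60S proteins had positive footprint changes, with a median of 0.68, and 14 rose in edgeR (0.694% of all genes), among them Rplp0 of the ribosomal stalk (0.99 ± 0.20) and Rpl8 (0.86 ± 0.16). Of the 27 measured initiation factors of 28 listed, 6 rose and 0 fell (0.694% and 0.0661% of all genes), with a median of 0.16. These were the eIF3 subunits Eif3f (0.61 ± 0.11), Eif3e (0.46 ± 0.08), Eif3l (0.41 ± 0.08), Eif3h (0.38 ± 0.07) and Eif3k (0.36 ± 0.07), and Eif2a (0.52 ± 0.10). Of the 39 measured 40S assembly factors of 55 listed, 0 passed in edgeR, 6 were higher and 0 lower at an unadjusted p under 0.05 (6.52% and 5.55% of all genes), and the median was 0.06. The smallest p-values there belonged to Rrp12 (0.20 ± 0.06) and Tsr1 (0.19 ± 0.06).

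Gnb2l1 (also called Rack1), a scaffold protein that sits on the head of the 40S subunit, had 101.6 CPM at the lowest, 121.5 at the median and 161.8 at the highest in leucine footprints. Its vehicle footprints were 61.3, 84.6, 91.0, 66.4 and 81.5 CPM. The groups did not overlap, and the change was 0.73 ± 0.16 (edgeR adjusted p = 0.0542). The other 14 measured genes of its list of 40S-associated and quality control proteins did not pass either (4 of the 15 higher and 2 lower at an unadjusted p under 0.05, against 6.52% and 5.55% of all genes), the median of the 15 was 0.05, and Edf1 had 0.35 ± 0.09. The 8 measured of 13 S6 kinase and phosphatase genes had a median of −0.11 and 0 passed in edgeR, with Rps6kb1 at −0.21 ± 0.08 and Rps6ka2 at −0.15 ± 0.06 (edgeR unadjusted p = 0.0261 and 0.0297). The phosphatase gene Ppp1ca had 0.15 ± 0.07 (edgeR unadjusted p = 0.0461). Polyubiquitin Ubb, which makes no 40S protein, had 0.00 ± 0.08 and did not pass in edgeR.

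Summed markers of other cell types in the whole muscle overlapped between leucine and vehicle footprints. Summed fibroblast and matrix markers, 9 of 9 measured, had 9421 to 12120 CPM in leucine footprints and 9277 to 17290 in vehicle footprints. Endothelial markers, 7 of 8 measured, had 1038 to 1569 CPM in leucine footprints and 1033 to 1439 in vehicle footprints. Macrophage and leukocyte markers, 3 of 7 measured, had 400.8 to 614.7 CPM in leucine footprints and 452.7 to 914.5 in vehicle footprints. Smooth muscle and pericyte markers, 5 of 6 measured, had 458.1 to 604.5 CPM in leucine footprints and 426.4 to 586.4 in vehicle footprints. Within several lists most single markers had estimates of the same sign. The median footprint change was −0.25 for fibroblast and matrix markers (1 of 9 positive), −0.34 for macrophage and leukocyte markers (0 of 3 positive) and −0.05 for endothelial markers (2 of 7 positive). It was 0.23 for smooth muscle and pericyte markers (4 of 5 positive) and 0.21 for muscle fibre markers (8 of 10 positive). In RNA the median was 0.17 for fibroblast and matrix markers (8 of 9 positive), 0.19 for macrophage and leukocyte markers (2 of 3 positive), −0.15 for endothelial markers (1 of 7 positive), −0.20 for smooth muscle and pericyte markers (0 of 5 positive) and 0.01 for muscle fibre markers (5 of 10 positive). No marker of these lists or of the muscle fibre list passed in edgeR in footprints or RNA, and 0 of 6 erythroid markers and 1 marker each of the satellite cell, adipocyte and Schwann cell lists were in the table. The part of cell composition in the footprint changes was not tested.

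The authors' deposited table of edgeR results listed all 32 genes for footprints. There 25 of them had an FDR under 0.05 in the authors' deposited table, all with a positive change, where 0.86% of its 9766 genes were higher and 0.0614% lower. Rps2 had the smallest p of all genes in the authors' deposited table, with a log2 change of 1.25, Rpsa the 2nd smallest with 0.99, and Rps27l had a change of 0.03 at an FDR of 1. For RNA the authors' deposited table listed 29 of the 32, and 0 of them had an FDR under 0.05. Of the 10000 genes listed there, which may not be all that were tested, 0.02% were higher and 0% lower. Those absent were Rps27a, Rps27l and Rps9, with edgeR unadjusted p-values of 0.996, 0.954 and 0.93 for RNA in the fit made here.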

How the data were processed

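The reads were processed with Bowtie, edgeR and the mouse build mm9, per the submitters' processing notes. Versions, counting settings and the treatment of reads with several matches: not given in the sources used here. The authors deposited whole-number counts per gene for 22 libraries, and no value lies below 129, so rare genes are not analysed here. They also deposited, per the file headers, edgeR results for each assay (log2 fold change, p-value and FDR), used here for description only.

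Counts were fitted with edgeR 4.0.16 (R 4.3.3): TMM factors, filterByExpr, which removed 0 genes, and robust quasi-likelihood tests, with Benjamini-Hochberg adjustment over 6054 genes and a threshold of 0.05. Footprints and RNA were fitted in 11 libraries each, and their ratio as an interaction over 22. Extra fits used the geometric mean of the 32 genes as library size. Alternatives used upper-quartile and RLE scaling, DESeq2 1.42.0, limma 3.58.1 (voom), no filter, the set as a covariate, each set alone, and each library left out. CPM used TMM-scaled library sizes. Changes are thus relative to other genes. Depth left counting error small beside the spread between libraries, and no pair of libraries of a group agreed within counting noise (chi-square per degree of freedom at least 20.6).

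Coding lengths came from the GENCODE annotation of GRCm38, matched by transcript accession for all 32 genes, in place of protein lengths, and only lengths were taken from it. Sequences are RefSeq's on GRCm38.p6. Samples were grouped by their labels. The members, gene lists and tests were chosen with earlier results of these data known. Named genes were those past a threshold in any comparison, the 4 largest and 4 smallest footprint changes, the 3 largest and 3 smallest changes of the ratio, the 3 smallest p in RNA, the 3 highest and lowest levels per length, fused or paralogous genes, and from each list those past the threshold or the 2 with the smallest p. Values of other members were added for completeness, and 4 of the 32 genes, which count in every total and median, are not reported singly here.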

Additional observations from a re-analysis of the deposited data

Results flagged for a closer look

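Of 120 groups of values checked (28 of the 40S genes in each group, and the set's share of counts and median), 7 had a library far from the others, and chance gives about 1 in 20. In leucine RNA, library A3 was far below the others for Rps24 (168.0 CPM, next 237.0), Rps9 (102.2 CPM, next 162.3) and Rpsa (143.0 CPM, next 186.9). The share of counts of the 32 genes was likewise low in leucine RNA A3, at 0.3415%, with the next at 0.4419%. Leucine RNA library A2 was far above the others for Rps15a (58.52 CPM, next 44.14). In vehicle footprints, library A1 was far below the others for Rps19 (6.585 CPM, next 10.08), and library B1 for Rps26 (7.524 CPM, next 9.481).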

How the results depend on the processing

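The number of 40S genes called higher in footprints, 13, was 0 with upper-quartile scaling, 0 in set A alone, 0 in set B alone and 30 with DESeq2, and it ran from 0 to 25 with each library left out. It was 14 with RLE scaling, 12 with limma-voom and 10 with the set as a covariate. The adjusted p-values lie just under the threshold, at 0.0479 to 0.0485, while the median change stayed between 0.53 and 0.77 and 31 of the 32 had an unadjusted p under 0.05 under every alternative run. In footprints relative to RNA, DESeq2 called 14 as higher against 0 in edgeR, and the median of 0.6173 was 0.3817 in set A alone and 0.9254 in set B alone. On the scale of the set's average, footprint calls were 4 higher with summed counts as library size. With each library left out they ran from 1 (without vehicle A1 or A3 or leucine B2) to 3 higher and 1 to 2 (without leucine A3) lower. For footprints relative to RNA they ran from 1 (without leucine RNA A3 or vehicle footprints A1) to 5 (without leucine footprints A3 or B3) higher, and from 1 (without any of 9 libraries) to 4 lower. The cause was not tested.

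Estimates near 0 changed sign. Rps27l had −0.0132 in footprints with upper-quartile scaling, −0.0131 in set B alone and −0.0206 to 0.0488 with each library left out. Relative to RNA it had −0.0124 with upper-quartile scaling, −0.0034 with the set as a covariate, −0.1332 in set A alone and −0.0375 to 0.086 with each library left out. Rps16 relative to RNA had −0.0407 with limma-voom, −0.0092 with the set as a covariate, −0.3023 in set A alone and −0.1297 to 0.2018 with each library left out, and Rps26 had −0.0655 in set B alone. The ratios from one set against changes in the other, and the values without Rps27l, were chosen after seeing the data. No paired analysis was possible because the columns carry no replicate number.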
